A study of Mus musculus with 10 samples.

Results

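The 9 genes described here encode adrenergic and muscarinic receptors of the heart and the proteins that carry or end their signal: the receptors Adrb1, Adra1a, Adra1b and Chrm2, the inhibitory G protein subunit Gnai2, the adenylyl cyclases Adcy5 and Adcy6, and the receptor kinases Grk2 and Grk5. They were taken as a fixed list by symbol, and all 9 were found among the 56748 genes of the count files. RNA was sequenced from the whole hearts, both atria included, of 5 wild-type mice that ran on a small-animal treadmill (training) and 5 wild-type mice that stayed sedentary (control), each mouse giving 1 library. Training was forced and lasted 8 weeks, at 15 m/min for 120 min per day on 5 days per week, and the sedentary mice were of the same age. A whole heart mixes atria, ventricles and all their cell types, so that fewer cells of a type and less RNA per cell cannot be told apart. The hearts were taken from larger groups of trained and sedentary mice; how these 10 were picked, and the time between the last run and the collection, are not given in the sources used here.

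Noradrenaline from sympathetic nerves acts on β1 receptors, which couple to the stimulatory G protein and switch on adenylyl cyclase. The cyclic AMP that results activates protein kinase A, and heart rate, contraction and relaxation all speed up. Acetylcholine from the vagus nerve acts on M2 receptors, whose inhibitory G protein holds adenylyl cyclase back and, through its βγ subunits, opens the acetylcholine-gated potassium channel that slows the sinus node. α1 receptors take another route, through Gq and phospholipase C. Receptor kinases phosphorylate an active receptor so that arrestin can bind and uncouple it.

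Reads that fell on genes in the sense strand of the kit numbered 29461697 to 35945417 in training hearts and 35196993 to 39431030 in sedentary hearts. Cardiomyocyte markers were the highest of the cell type lists in all 10 hearts, as the tissue label requires, and skeletal muscle markers summed to no more than 2.22 CPM (counts scaled to library size after TMM normalization) in any heart. The 5 atrial markers (Myl7, Myl4, Sln, Bmp10 and Nppa) summed to 4795 to 7306 CPM in training hearts and 2678 to 6620 CPM in sedentary hearts, with sedentary hearts 2 and 5 lowest (exact two-sided permutation test, p = 0.0873; 0.170 adjusted over 10 marker lists). Nppa made up most of this sum, with means of 3516 of 5925 CPM in training and 2554 of 4219 CPM in sedentary hearts. Of these 5 markers, Sln alone passed the test across all genes, and it was higher in training hearts. The 5 cardiomyocyte markers summed to 48035 to 51618 CPM in training hearts and 50819 to 58590 CPM in sedentary hearts (exact permutation p = 0.0159, adjusted 0.0794), and the 5 endothelial markers to 700 to 763 CPM against 783 to 828 CPM (exact permutation p = 0.00794, the smallest that 5 hearts against 5 allow, adjusted 0.0794). Sums of the fibroblast, macrophage, adipocyte, Schwann cell and skeletal muscle markers overlapped between the groups (exact permutation p = 0.0952 to 0.540). Their part in the results that follow was not tested, beyond a fit with the atrial markers as a covariate that is given where it bears on a count.

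The first question was whether the level of any of the 9 transcripts changed with training. None of the 9 passed the test (edgeR quasi-likelihood test, Benjamini-Hochberg adjusted p below 0.1), and the values of the training and sedentary hearts overlapped for each of them. Across all 15454 genes tested, 1084 passed (7.01%), of which 425 were higher (2.75%) and 659 lower (4.26%) in training hearts, and 782 genes (5.06%) did not overlap between the groups. Chrm2 and Adrb1 had unadjusted p-values below 0.05, as had 3087 genes in all (20.0%). Expressed as log2 of training over sedentary, the median change was 0.024 over the 9 genes and 0.00026 over all genes tested, with 7 of the 9 above 0. Without TMM, scaled by library totals alone, the median of all genes moved to 0.053 and the calls to 1029 higher and 339 lower; 2 of the 9, Adrb1 and Chrm2, then passed, beside 8.85% of all genes. With DESeq2, 1 of the 9 passed, Chrm2, beside 9.53% of all genes.

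Of the receptors, Adrb1, the β1 receptor and main target of noradrenaline in cardiomyocytes, came first by size of estimate among the 9 with all hearts in the fit. Its level was 23.0, 28.3, 22.7, 21.4 and 23.6 CPM in training hearts 1 to 5, and 21.3, 20.8, 21.5, 21.5 and 20.7 CPM in sedentary hearts 1 to 5. Training heart 2 stood highest, and training heart 4 lay within the sedentary range. The means were 23.8 ± 2.66 and 21.1 ± 0.370 CPM (SD, n = 5 each), a log2 fold change of 0.17 (SE 0.066, edgeR adjusted p = 0.166, 95% interval 0.030 to 0.31, or 1.02-fold to 1.24-fold). Without training heart 2 the log2 fold change was 0.10 (edgeR adjusted p = 0.250), below that of Chrm2 in the same fit (0.13). The spread of the 5 sedentary hearts, 1.75% of their mean, was below the 3.59% that counting alone would give at this depth, whereas the training hearts spread by 11.2%.

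Chrm2, the M2 receptor, through which the vagus slows the heart, was the most abundant of the 4 receptors. It measured 193.9, 179.6, 180.4, 188.1 and 186.1 CPM in training hearts 1 to 5, and 177.0, 158.6, 171.6, 181.5 and 167.5 CPM in sedentary hearts 1 to 5. Only sedentary heart 4 reached into the range of the training hearts, where it exceeded hearts 2 and 3. The means were 185.6 ± 5.89 and 171.2 ± 8.84 CPM, a log2 fold change of 0.12 (SE 0.043, edgeR adjusted p = 0.151, 95% interval 0.025 to 0.21, or 1.02-fold to 1.16-fold). DESeq2 on the same counts gave 0.12 with an adjusted p of 0.0826, below the threshold, and library totals alone gave 0.17 with an adjusted p of 0.0550 in edgeR. Fitted together with the atrial markers, the estimate was 0.056 (edgeR adjusted p = 0.697).

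The 2 α1 receptors, which answer noradrenaline through Gq, were the only members with estimates below 0. Adra1a was at 30.9, 27.5, 30.1, 30.3 and 38.5 CPM in training hearts 1 to 5 and at 26.8, 34.3, 31.4, 41.6 and 37.0 CPM in sedentary hearts 1 to 5. The lowest of all 10 hearts was sedentary heart 1 and the highest sedentary heart 4, so the sedentary range enclosed that of the training hearts. The log2 fold change was -0.12 (SE 0.11, edgeR adjusted p = 0.587, 95% interval -0.35 to 0.11). It was -0.20 without training heart 5 or sedentary heart 1, -0.077 without training heart 2, -0.041 without sedentary heart 4 and -0.021 with the atrial markers as a covariate. Adra1b measured 36.5, 30.2, 35.3, 33.5 and 38.6 CPM in training hearts and 36.3, 34.9, 33.8, 40.9 and 38.96 CPM in sedentary hearts, in the same order. The groups overlapped over most of their range, with training heart 2 lowest and sedentary heart 4 highest. Its log2 fold change was -0.088 (SE 0.069, edgeR adjusted p = 0.520, 95% interval -0.23 to 0.059).

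Gnai2, the inhibitory G protein subunit that links M2 receptors to adenylyl cyclase, measured 203.2, 198.8, 207.0, 201.8 and 196.9 CPM in training hearts and 186.2, 196.2, 200.5, 195.1 and 213.2 CPM in sedentary hearts. Every training heart lay inside the sedentary range. The log2 fold change was 0.024 (SE 0.040, edgeR adjusted p = 0.798), and the 95% interval of -0.063 to 0.11 spans 0.957-fold to 1.08-fold.

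Adcy5 and Adcy6, the calcium-inhibited cyclases that make most of the cyclic AMP of cardiomyocytes, had estimates above 0. Adcy5 measured 129.0, 133.0, 144.8, 134.3 and 133.6 CPM in training hearts 1 to 5 and 133.9, 119.1, 128.3, 130.8 and 123.9 CPM in sedentary hearts 1 to 5. Training heart 3 was highest and sedentary heart 2 lowest, with sedentary hearts 1 and 4 inside the training range. The log2 fold change was 0.085 (SE 0.043, edgeR adjusted p = 0.294, 95% interval -0.0080 to 0.18), and 0.0089 with the atrial markers as a covariate. Adcy6 measured 350.1, 307.4, 310.9, 311.6 and 347.4 CPM in training hearts and 299.8, 307.6, 307.9, 331.7 and 322.2 CPM in sedentary hearts. Training hearts 1 and 5 were the highest of the 10, and the other training hearts lay among the sedentary ones. The log2 fold change was 0.053 (SE 0.049, edgeR adjusted p = 0.603, 95% interval -0.053 to 0.16).

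Grk2 and Grk5 encode the 2 main receptor kinases of the heart, Grk2 being recruited to the membrane by free βγ subunits and Grk5 resting there already. Grk2 measured 68.2, 74.2, 70.8, 75.3 and 69.99 CPM in training hearts and 66.1, 77.0, 69.9, 71.8 and 73.3 CPM in sedentary hearts. All training hearts lay within the sedentary range, and the log2 fold change was 0.0014 (SE 0.047, edgeR adjusted p = 0.991, 95% interval -0.099 to 0.10). Grk5 measured 53.8, 63.8, 60.7, 62.9 and 57.2 CPM in training hearts and 66.9, 61.6, 64.4, 52.0 and 50.0 CPM in sedentary hearts. The sedentary hearts fell into 3 higher and 2 lower values that enclosed all training hearts. The log2 fold change was 0.017 (SE 0.079, edgeR adjusted p = 0.933, 95% interval -0.15 to 0.19). For both kinases the sign of so small an estimate changed with single hearts, and for Grk5 also with the atrial markers as a covariate (-0.048). With that covariate Grk2 was 0.077.

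**Figure D1:**
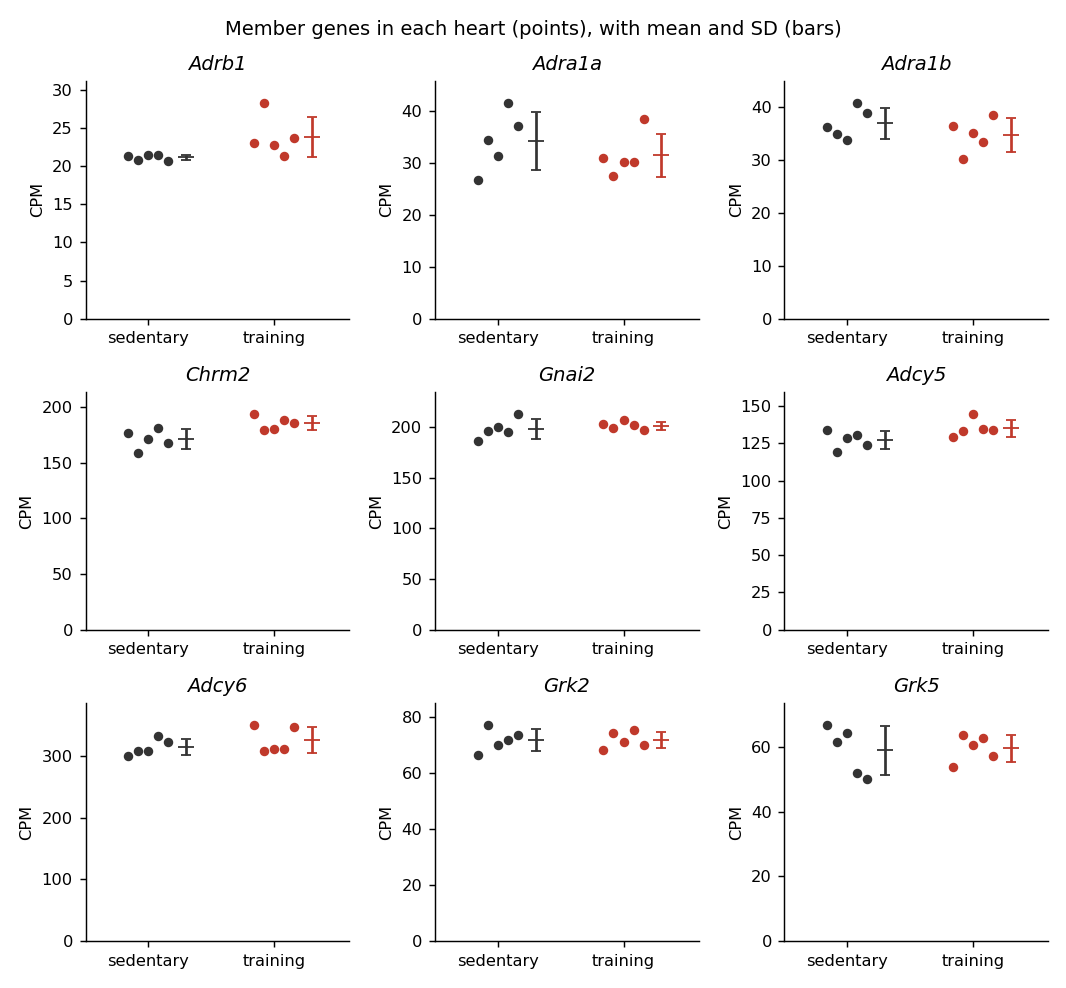
CPM after TMM normalization (y axis, from 0) of each of the 9 genes in 5 sedentary (black) and 5 training (red) hearts, 1 point per heart, with the mean and SD as a bar beside them. The groups overlap in all 9 panels; Adrb1 reaches 28.3 CPM in training heart 2 while the sedentary hearts lie between 20.7 and 21.5 CPM.

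Levels between genes were compared in TPM, a measure of transcript abundance that is corrected for transcript length. In sedentary hearts the order of mean TPM ran from Gnai2 (100.7) through Adcy6 (65.9), Chrm2 (30.6), Grk2 (29.5), Adcy5 (18.6), Adra1b (16.6), Grk5 (9.62) and Adra1a (9.35) to Adrb1 (7.37). The ranges of neighbours overlapped among sedentary hearts for Chrm2 and Grk2, for Adcy5 and Adra1b, for Grk5 and Adra1a, and for Adra1a and Adrb1. Within single hearts, Grk5 was above Adra1a in 7 of 10 and Adra1a above Adrb1 in 8 of 10, and each of the other 6 neighbours kept its order in 10 of 10. Gnas, the stimulatory G protein subunit, was far above them all at 645.7 ± 21.5 TPM in sedentary and 700.3 ± 34.5 TPM in training hearts. TPM are scaled to each library's own sum without TMM, and on this scale Chrm2 did not overlap, with 34.3 to 37.0 TPM in training and 27.7 to 33.6 TPM in sedentary hearts. It was the only 1 of the 9 genes to do so, where 4.72% of all genes tested did not overlap in TPM, most of them (3.99%) with the training hearts higher.

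**Figure D2:**
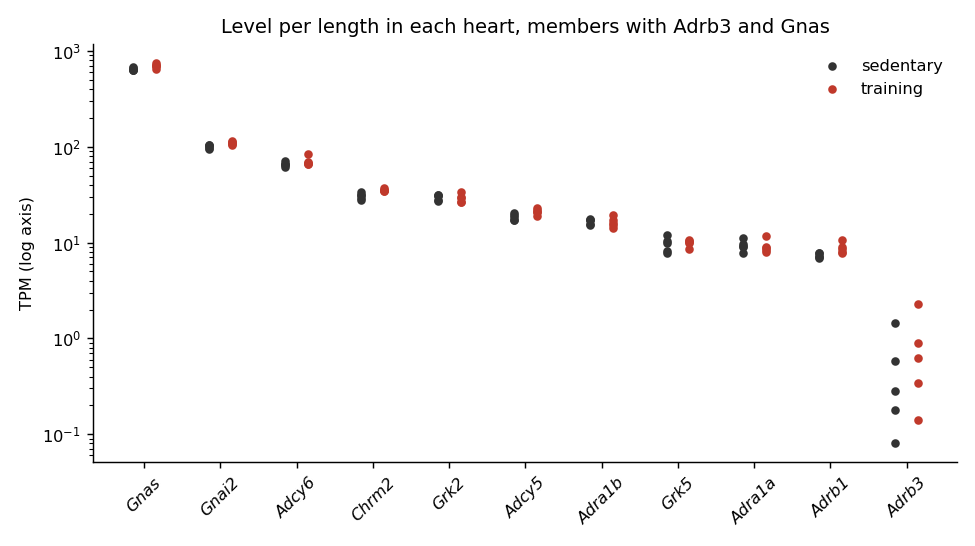
TPM on a log axis (y) of the 9 genes and of Adrb3 and Gnas (x, ordered by the sedentary mean), 1 point per heart, sedentary in black and training in red. Gnas lies between 626.0 and 748.4 TPM, while Adrb3 ranges from 0.08 to 2.26 TPM.

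Shares of family TPM are given for 5 families, in which Chrm2, Gnai2, Adcy6, Grk2 and Adra1b were the most abundant. Chrm2 made up 98.8 ± 0.302% of the summed TPM of the 5 muscarinic receptors in sedentary hearts and 98.6 ± 0.624% in training hearts, and Gnai2 90.8 ± 0.783% and 90.4 ± 0.381% of the 3 inhibitory subunits (SD, n = 5 each). Among 10 adenylyl cyclases, Adcy6 held 62.4 ± 1.27% and 61.6 ± 2.91%, and Adcy5 17.7 ± 1.38% and 18.4 ± 1.12%. Grk2 held 56.3 ± 2.03% and 55.0 ± 1.84% of 5 receptor kinases, and Grk5 18.3 ± 2.38% and 18.8 ± 1.40%. Of the α1 receptors, Adra1b held 58.5 ± 2.68% and 58.8 ± 1.56%, and Adra1a 32.9 ± 2.63% and 32.8 ± 1.43%. These are shares of messenger RNA in the whole heart, and the cell types that hold each gene differ.

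**Figure D3:**
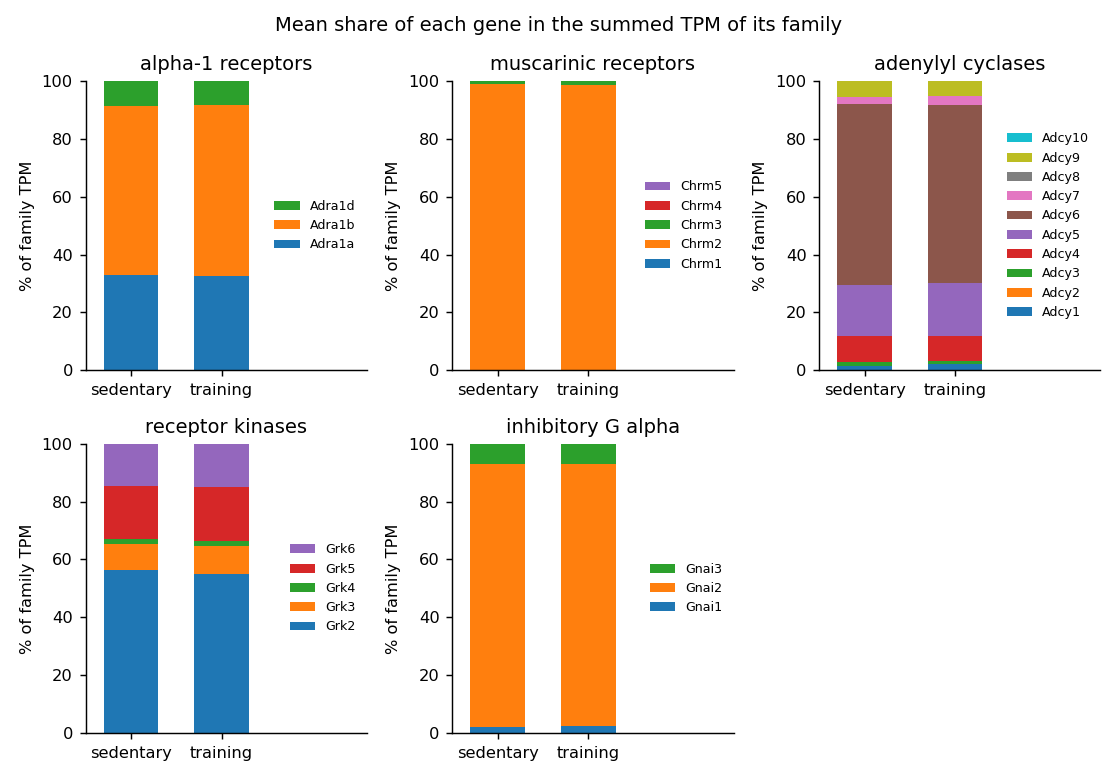
Mean share (% of summed TPM, y axis from 0 to 100) of each gene within 5 families, sedentary beside training hearts, n = 5 each. Chrm2 and Gnai2 fill 98.8% and 90.8% of their families in sedentary hearts and 98.6% and 90.4% in training hearts.

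Ratios of 2 genes within a heart do not depend on library scaling, and 5 were tested. Adcy5 to Adcy6 was 0.299 ± 0.0310 in training and 0.283 ± 0.0270 in sedentary hearts (exact two-sided permutation p = 0.421). Grk5 to Grk2 was 0.343 ± 0.0351 and 0.326 ± 0.0526 (exact permutation p = 0.548), and Adra1a to Adra1b 0.557 ± 0.0350 and 0.565 ± 0.0648 (exact permutation p = 0.905). Chrm2 to Adrb1, the balance of the main vagal and sympathetic receptor transcripts, was 4.08 ± 0.518 and 4.15 ± 0.171 (exact permutation p = 0.857). Gnai2 to Gnas, inhibitory to stimulatory subunit, was 0.157 ± 0.00660 and 0.156 ± 0.00679 (exact permutation p = 0.889). No ratio differed by more than the spread between hearts, and the 5 p-values adjusted together were all 0.905.

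Gnas, named as a near relative of the members whatever its values, had a log2 fold change of -0.019 (SE 0.048, edgeR adjusted p = 0.867). Exons of the antisense gene Gnasas1 lie opposite those of Gnas, and with the strand ignored Gnas gave -0.46 (edgeR adjusted p = 0.0436) on 400 to 946 counts a heart, against 24546 to 32906 with strand.

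Adrb3, the β3 receptor, which is best known from fat cells, varied widely between hearts. It was at 0.962, 0.372, 1.58, 4.42 and 1.69 CPM in training hearts 1 to 5 and at 2.68, 0.175, 0.399, 0.455 and 1.04 CPM in sedentary hearts 1 to 5, with a log2 fold change of 0.88 (SE 0.64, edgeR adjusted p = 0.484, 95% interval -0.49 to 2.25). Without training heart 4 it was 0.24, without sedentary heart 1 it was 1.77, and with the atrial markers as a covariate it was 0.092. Training heart 4 and sedentary heart 1 were highest. The same hearts had the highest sums of 5 adipocyte markers, 165.2 and 134.4 CPM, where the other 8 lay between 17.3 and 81.5 CPM, and the part of these cells in Adrb3 was not tested.

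The wider pathway was described with 79 further genes in 11 role lists, of which 70 were abundant enough to test. In this wider set 12 genes passed (17.1%, against 7.01% of all genes tested), 8 higher (11.4% against 2.75%) and 4 lower (5.71% against 4.26%) in training hearts, and 3 did not overlap between groups (all genes, 5.06%). Estimates were above 0 for 36 and below 0 for 34, with a median of 0.0024 on the log2 scale. Pde2a, a phosphodiesterase whose exons overlap Gm45837 on the same strand, was among the 9 genes too low to test, and its counts are uncertain for that reason. The count was 3 without training heart 3 (3.47% of all genes passed in that fit), 6 without training heart 4 (3.29%), 5 or 6 without any single one of sedentary hearts 2 to 5 (3.29 to 4.88%), and 16 without sedentary heart 1 (9.58%). With the atrial markers as a covariate, 0 of the 70 and 126 of all genes (0.815%) passed in edgeR.

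The 2 subunits of the acetylcholine-gated potassium channel, the other arm of M2 signaling, were both above 0. Kcnj3 rose, from 155.6, 117.4, 127.0, 150.8 and 132.4 CPM in sedentary hearts 1 to 5 to 180.2, 146.3, 193.5, 170.5 and 183.6 CPM in training hearts 1 to 5. Only training heart 2 lay within the sedentary range. The log2 fold change was 0.36 (SE 0.084, edgeR adjusted p = 0.0379), and it passed in all 10 fits that left out 1 heart. Kcnj5, its partner, measured 109.3 ± 7.58 CPM in training and 92.3 ± 13.5 CPM in sedentary hearts and did not pass (log2 fold change 0.24, edgeR adjusted p = 0.144). Of both genes it is known that atrial cells hold more than ventricular cells.

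Of the 7 other adenylyl cyclases tested, 2 rose. Adcy1, a calcium-stimulated cyclase found in the sinus node and atria, went from 22.2, 14.7, 20.1, 19.7 and 14.3 CPM in sedentary hearts 1 to 5 to 25.0, 22.5, 30.6, 27.0 and 23.4 CPM in training hearts 1 to 5, without overlap (log2 fold change 0.50, SE 0.120, edgeR adjusted p = 0.0418). Its 2 lowest values, in sedentary hearts 2 and 5, came from the hearts with the lowest atrial marker sums. Sedentary heart 1, at 6620 CPM of atrial markers, lay below every training heart in Adcy1, but only just below training heart 2 (22.2 against 22.5 CPM). Training hearts 2 and 5 had lower atrial sums than sedentary heart 1, 5206 and 4795 CPM. The part of atrial content in Adcy1 was not tested, beyond the covariate fit given below. Adcy7 rose by 0.30 (SE 0.081, edgeR adjusted p = 0.0615), and passed in 6 of 10 fits without 1 heart, where Adcy1 passed in 9. In TPM, Adcy1 was 2.03 ± 0.257% of all adenylyl cyclase transcripts in training hearts and Adcy7 2.93 ± 0.403%, both far below the shares of Adcy5 and Adcy6.

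Fitted with the atrial markers as a covariate, the log2 fold change was 0.18 for Kcnj3 (edgeR adjusted p = 0.376) and 0.18 for Adcy1 (edgeR adjusted p = 0.288). That of Adcy7 was 0.26 (edgeR adjusted p = 0.334). That of Adrb1 was 0.19 (SE 0.085, edgeR adjusted p = 0.396), beside 0.17 (SE 0.066) without the covariate.

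**Figure D4:**
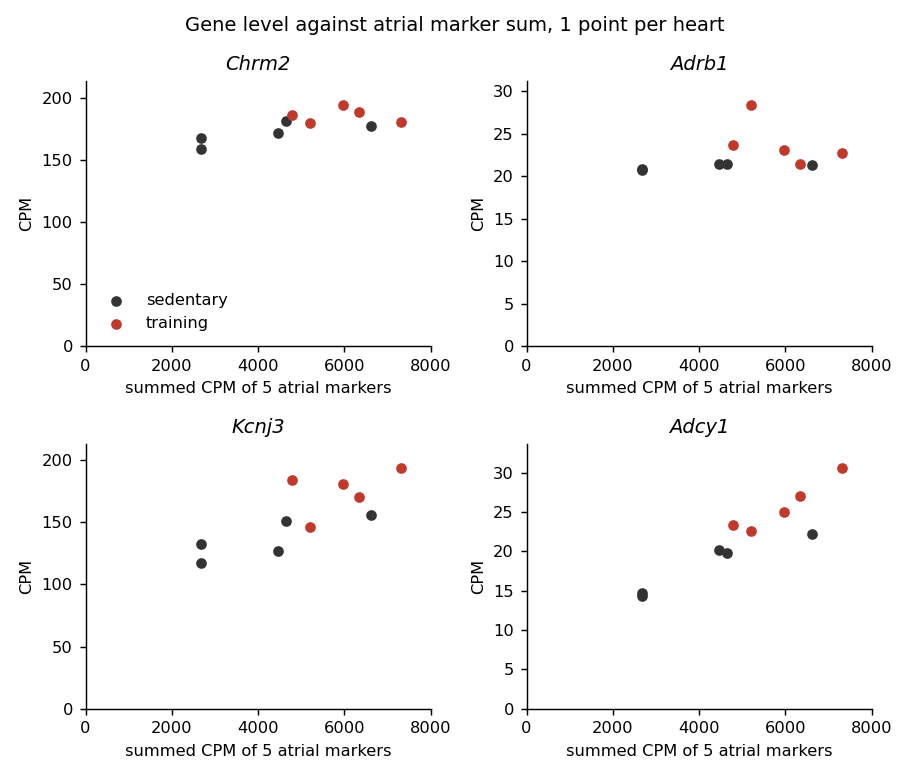
CPM (y axis, from 0) of Chrm2, Adrb1, Kcnj3 and Adcy1 against the summed CPM of 5 atrial markers (x axis, from 0), 1 point per heart, sedentary in black and training in red. Sedentary hearts 2 and 5, at 2678 and 2681 CPM of atrial markers, have the lowest Adcy1, 14.7 and 14.3 CPM, and training heart 3, at 7306 CPM, the highest, 30.6 CPM. Sedentary heart 1, at 6620 CPM of atrial markers, lies just below training heart 2 in Adcy1 and below every other training heart. The part of atrial content in these levels was not tested.

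Among phosphodiesterases, which break down cyclic nucleotides, 2 of 7 tested rose. Pde1c, a calcium-dependent enzyme, was at 77.4 ± 4.56 CPM in training and 65.6 ± 4.94 CPM in sedentary hearts (log2 fold change 0.24, SE 0.056, edgeR adjusted p = 0.0379), and passed in all 10 fits without 1 heart. With the atrial markers as a covariate its log2 fold change was 0.28 (edgeR adjusted p = 0.143). Pde3b, best known for ending cyclic AMP signals in fat and liver, was at 13.9 ± 2.20 and 10.5 ± 1.23 CPM (log2 fold change 0.40, SE 0.107, edgeR adjusted p = 0.0551). It passed in 5 of 10 fits without 1 heart, and its log2 fold change was 0.22 with the atrial markers as a covariate (edgeR adjusted p = 0.465). Its highest level was in training heart 4, the heart with the most adipocyte marker. Without that heart the log2 fold change of Pde3b was 0.33 (edgeR adjusted p = 0.130). The part of adipocytes in Pde3b was not tested. Pde3a, the more abundant enzyme of that family in these hearts, measured 113.0 ± 5.64 and 110.9 ± 6.01 CPM (log2 fold change 0.027, edgeR adjusted p = 0.810).

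Of 8 other G protein subunits, 2 rose. Gnai1, a minor inhibitory subunit beside Gnai2, was at 8.77 ± 0.535 CPM in training and 7.20 ± 0.752 CPM in sedentary hearts (log2 fold change 0.28, SE 0.079, edgeR adjusted p = 0.0682), and its log2 fold change was 0.15 with the atrial covariate (edgeR adjusted p = 0.524). Gnb2, a β subunit, was at 106.9 ± 2.02 and 98.6 ± 1.89 CPM without overlap (log2 fold change 0.12, SE 0.033, edgeR adjusted p = 0.0717). With the atrial covariate its log2 fold change was 0.125 (edgeR adjusted p = 0.288). Exons of Gnb2 overlap Epo and Mir6418 on the same strand, so its counts are less certain. With the RSEM expected counts the log2 fold change of Gnb2 was 0.086 (edgeR adjusted p = 0.158). It also did not pass with no filter (edgeR adjusted p = 0.275) or with the mouse number as a block (edgeR adjusted p = 0.129). It passed with DESeq2, with its size factors, library totals, a minimum of 10 counts and both strands. Gnai1 and Gnb2 each passed in 3 of 10 fits without 1 heart.

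Of 8 proteins that protein kinase A phosphorylates or that take part in its effect, 2 fell and 1 rose. Cacna1c, the pore of the L-type calcium channel, was at 312.0 ± 14.9 CPM in training and 360.6 ± 25.4 CPM in sedentary hearts (log2 fold change -0.21, SE 0.052, edgeR adjusted p = 0.0460). It passed in 8 of 10 fits without 1 heart, and was -0.14 with the atrial covariate (edgeR adjusted p = 0.391). Fxyd1, phospholemman, which restrains the sodium pump until it is phosphorylated, was at 233.5, 223.2, 217.0, 219.9 and 192.7 CPM in training hearts 1 to 5 and at 244.8, 244.8, 240.8, 257.1 and 272.5 CPM in sedentary hearts 1 to 5, without overlap. Its log2 fold change was -0.21 (SE 0.053, edgeR adjusted p = 0.0444), and it passed in all 10 fits without 1 heart. With the atrial covariate Fxyd1 was at -0.20 (SE 0.069, edgeR adjusted p = 0.275). Cacna1c and Fxyd1 are both cardiomyocyte genes, and the summed cardiomyocyte markers were lower in training hearts too, by a log2 difference of -0.16. Of these 5 markers Actc1 alone passed (log2 fold change -0.38, edgeR adjusted p = 0.0220). The part of cardiomyocyte content in Cacna1c and Fxyd1 was not tested. Rrad, a small GTPase that inhibits the calcium channel until protein kinase A releases it, rose by 0.48 (SE 0.15, edgeR adjusted p = 0.0974), with values of 124.3 to 216.4 CPM in training and 92.5 to 155.3 CPM in sedentary hearts. With the atrial covariate its log2 fold change was 0.37 (edgeR adjusted p = 0.449). Rrad did not pass with DESeq2 (Wald test adjusted p = 0.118) or with the RSEM expected counts (edgeR adjusted p = 0.114). It passed with DESeq2 size factors, library totals, no filter, a minimum of 10 counts, both strands and the mouse number as a block. Pln, phospholamban, measured 5228 ± 385.6 and 5231 ± 311.5 CPM (log2 fold change -0.00083, edgeR adjusted p = 0.996).

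Among the 5 RGS proteins, which end G protein signals, 1 fell. Rgs5, a GTPase-activating protein of inhibitory and Gq subunits that is typical of pericytes, was at 485.6 ± 30.9 CPM in training and 551.7 ± 33.5 CPM in sedentary hearts (log2 fold change -0.18, SE 0.054, edgeR adjusted p = 0.0814). With the atrial covariate it was -0.083 (edgeR adjusted p = 0.585). The 5 mural cell markers summed to 308.6 to 407.3 and 322.6 to 405.0 CPM (exact permutation p = 0.714). Their log2 fold changes went both ways, 0.35 for Myh11 and 0.15 for Cspg4, and -0.069 for Acta2, -0.034 for Pdgfrb and -0.086 for Kcnj8. None of the 5 passed, and the part of mural cells in Rgs5 was not tested. Rgs5 and Rrad each passed in 2 of 10 fits without 1 heart.

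In 4 lists 0 genes passed in edgeR: the 6 other receptors tested, the 5 other receptor kinases and arrestins, the 8 effectors of cyclic AMP, and the 6 genes of phospholipase C and protein kinase C. DESeq2, which called 9.53% of all genes, called 0, 0, 1 and 0 of them. An unadjusted edgeR p below 0.05 was found for 0, 0, 3 and 2, and for 20.0% of all genes tested. Of the cyclic AMP effectors, 7 of 8 had estimates below 0, as had 7716 of all 15454 genes tested. Their median log2 fold change was -0.083. Prkaca, the main catalytic subunit of protein kinase A, measured 206.8 ± 4.61 CPM in training and 209.8 ± 12.5 CPM in sedentary hearts. The 5 autonomic neuron markers summed to 12.2 to 20.6 CPM in training and 10.6 to 12.2 CPM in sedentary hearts (exact permutation p = 0.0238, adjusted 0.0794), with training heart 4 highest.

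**Figure D5:**
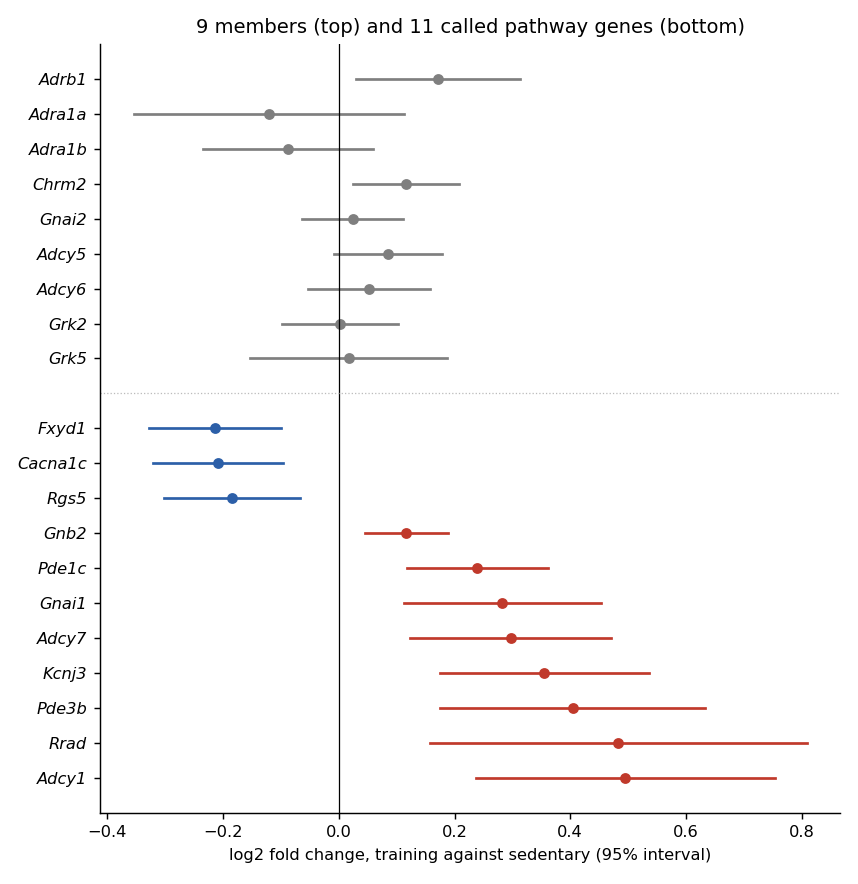
Log2 fold change in training hearts relative to sedentary hearts, with its 95% interval (x axis), for the 9 members (top, grey, none passed the test) and 11 further pathway genes that passed (bottom, red higher and blue lower in training hearts). The members lie between -0.12 and 0.17 and the genes below them between -0.21 and 0.50; the latter are shown because they passed.

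Of the 9 genes, 3 lie on chromosome 19 of the mouse (GRCm39): Adrb1 at 56710631-56721545, Grk2 at 4336013-4356418 and Grk5 at 60878187-61087409. Chrm2 lies on chromosome 6 at 36364718-36505582, where exons of 9330158H04Rik are on the other strand. RefSeq promoter windows (250 bases before to 50 after a start, GRCm38.p6) were at hand for 5 of the 9 genes, in 6 windows. They were searched on both strands for TGACG, the core of the cyclic AMP response element to which CREB binds, and for the full element TGACGTCA. The core was found in 1 of the 6 windows, that of Adrb1, and in 20.8% of 32851 windows of all genes. The full element was in none of the 6 and in 1.79% of all. The last 100 bases before the start are shown for Adrb1 and Chrm2, the members of smallest p, with the core in capitals where it is present; both genes are on the plus strand.
Adrb1, chr19:56722017-56722116: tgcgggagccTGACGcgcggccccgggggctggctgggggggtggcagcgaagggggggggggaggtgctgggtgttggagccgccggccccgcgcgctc
Chrm2, chr6:36387984-36388083: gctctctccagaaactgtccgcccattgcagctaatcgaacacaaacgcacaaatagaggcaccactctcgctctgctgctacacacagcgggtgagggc
Such a match is a run of letters and not evidence of binding, and the data hold no measurement of it.

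The genes whose levels moved most like Chrm2, the member of smallest p, were sought among 10240 genes of at least 5 CPM by the correlation of log2 CPM across the 10 hearts, each group centred on its mean. They were Dctn6 (Pearson's r = 0.977), the long non-coding Gata6os (0.952) and Tppp (0.913). They were the highest of 10240 values over only 10 hearts, share libraries and depth with Chrm2, and are given as a description. None of the 3 passed the test between groups in edgeR (adjusted p = 0.260, 0.522 and 0.288).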

How the data were processed

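Whole hearts of 5 training and 5 sedentary mice were homogenized in Trizol, and strand-specific libraries (NEBNext Ultra II Directional, poly-T) were sequenced as single reads. Per the methods and the submitters' processing notes, the authors aligned reads to GRCm39 with STAR 2.7.10a and deposited its counts per gene, which hold uniquely mapped reads for 3 strand settings, and ran RSEM 1.3.3, which gave the deposited expected counts and TPM with their effective lengths. The counts of the reverse strand, which held 94.9 to 95.6% of the counts assigned with strand, were used; multimapping reads (17.9 to 19.2%) and reads on no gene (4.15 to 4.89%) were left out of library sizes.

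Symbols and positions came from GENCODE on GRCm39, a later release than the authors' annotation. Genes were filtered (filterByExpr), normalized (TMM) and tested with edgeR 4.0.16 (quasi-likelihood) in R 4.3.3, with Benjamini-Hochberg adjustment over 15454 genes and a threshold of 0.1. The pipeline was tested on simulated data. Intervals are 95% confidence intervals of the log2 fold change under the fit, and do not give the range of single hearts. Ratios of deposited TPM and marker sums were compared by exact permutation in scipy 1.17.1. Alternatives were DESeq2 1.42.0 (Wald test and size factors), scaling by library totals, all genes with any count, a minimum of 10 counts per library, counts of both strands, the RSEM expected counts rounded to whole numbers, the mouse number as a block, the mean log2 CPM of the atrial markers as a covariate, a threshold of 0.05 and leaving out each heart.

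Named were the 9 members, pathway genes that passed, Adrb3, Gnas and the 3 genes most like the member of smallest p; Kcnj5, Pde2a, Pde3a, Pln and Prkaca were added after their values were seen. Some results for single genes are not reported here, though their genes remain in the counts. The members and lists were chosen with earlier results of these data known, so no p-value over a list is given.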

Additional observations from a re-analysis of the deposited data

How the results depend on the processing

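Among the 9 genes, 0 passed in edgeR, 1 (Chrm2) with the DESeq2 Wald test (9.53% of all genes) and 2 (Adrb1 and Chrm2) with library totals alone (8.85%); 0 passed under each of the other alternatives run, those without 1 heart included. The count of further pathway genes that passed was 12. At a threshold of 0.05 it was 5, for which the share of all genes is not given. It was 0 with the atrial markers as a covariate, 3 to 16 without 1 heart and 11 to 16 under the rest. Over all genes, 3.55 to 9.53% passed under the rest. The 1084 genes (7.01%) became 126 (0.815%) with the covariate and 512 to 1490 (3.29 to 9.58%) without 1 heart. The cause was not tested. Atrial markers were themselves higher on average in training hearts, so this covariate and training cannot be fully told apart.

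Hearts with the same mouse number in the labels were little alike, with correlations of their deviations of -0.097, 0.159, 0.075, 0.024 and 0.159. Of 5 training hearts, 1 correlated best with its own number. The check has no reference for what paired hearts would give, so it cannot exclude a pairing. With the number as a replicate block, 0 members, 15 further pathway genes and 1137 genes in all (7.36% of those tested) passed.

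Without 1 heart, Adra1a ranged from -0.20 to -0.041, Adra1b from -0.13 to -0.041, Adcy6 from 0.025 to 0.073 and Gnai2 from 0.0019 to 0.051. With the atrial covariate, Adra1b was -0.11, Adcy6 0.070 and Gnai2 0.062, each further from 0 than in the main fit. Other estimates near 0 changed sign. Grk2 was -0.0076 with no filter, 0.077 with the atrial covariate and -0.026 to 0.029 without 1 heart. Grk5 was -0.048 with the atrial covariate and -0.037 to 0.067 without 1 heart. Gnas was 0.036 with library totals alone, 0.023 with the atrial covariate and -0.050 to 0.0080 without 1 heart. Without 1 heart the log2 ratios differed between groups by -0.0047 to 0.15 (Grk5 to Grk2), -0.088 to 0.027 (Adra1a to Adra1b), -0.078 to 0.049 (Chrm2 to Adrb1) and -0.019 to 0.022 (Gnai2 to Gnas), and mural cell marker sums by -0.0046 to 0.091.

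With 5 hearts a group, intervals for the members span 0.17 to 0.47 on the log2 scale, so changes well above a few percent may not be detectable. Adrb1, at an estimated 1.13-fold, did not pass, and the interval of Adra1a reaches down to 0.78-fold. Nothing here measures receptor protein, receptor density or signaling. Atrial marker sums varied between hearts, and the chambers were not separated.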
